A study of Mus musculus with 18 samples.

Results

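The Il10 cytokine cluster of the mouse, a row of 5 genes on chromosome 1, was followed through maps of H3K79me2 (dimethylated lysine 79 of histone H3) in naive, Th1 and Th2 cells. The members are Il10, Il19, Il20 and Il24, which encode cytokines of the IL-10 family, and Mapkapk2, which encodes the kinase MK2. They were chosen by name and position, with earlier results of these data known, and are 5 of the 21631 protein-coding genes measured. The study mapped the mark by chromatin immunoprecipitation and sequencing to address the role in T helper cells of DOT1L, the enzyme that sets it. All cells were of WT genotype by their labels. Naive cells (3 libraries) were CD44- CD62L+ cells sorted, without culture, from the spleens of WT mice. Th1 cells (3 libraries) came from CD4+ T cells that were enriched and stimulated for 4 days through plate-bound antibodies to CD3 and CD28. Their medium held IL-12, IL-2 and an antibody to IL-4 (anti-IL-4), and they were sorted by the YFP of an IFNg-YFP reporter mouse. Th2 cells (3 libraries) were stimulated in the same way with IL-4, IL-2 and anti-IFNg and sorted by IL-4 AmCyan or IL-13 dsRed from a 4C13R reporter mouse. Neither sort used a member of the cluster. Culture, mouse strain and cell type changed together between naive and cultured cells, and their parts in any difference cannot be told apart. Between Th1 and Th2 cells the medium, the reporter mouse and the sort changed together with the lineage, and their parts cannot be told apart either. Each library has its own list of broad peaks, and nothing in the labels ties the 3 libraries of any group to different mice. The spread between libraries, and each p-value, may therefore be technical.

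H3K79me2 is laid down by DOT1L along transcribed genes, usually from the start of the gene into its body, and broad domains of it are a common feature of active genes. IL-10 is the main cytokine by which activated T cells restrain macrophages, dendritic cells and other T cells, and it can be made by Th1 as well as Th2 cells. IL-19, IL-20 and IL-24 act mainly on epithelial cells, and IL-24 is known as a product of Th2 cells in the mouse. MK2 is the kinase below p38 that stabilises cytokine mRNAs by acting on the RNA-binding protein TTP. Il10 is known to be read towards higher coordinates and Mapkapk2 is read towards it, so that the 3′ ends of the pair face each other.

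On mm10 the cluster runs over 215.8 kb, from 130882074 to 131097871, in the order Il24 (130882074 to 130887411), Il20 (130906985 to 130911296), Il19 (130932656 to 130945457), Il10 (131019845 to 131024970) and Mapkapk2 (131053700 to 131097871). No member overlaps another protein-coding gene. The gene positions are those of RefSeq on GRCm38.p6, the assembly of mm10. RefSeq promoter windows of 300 bases around the start of the gene were at hand for 3 of the 5 members, all on the minus strand, and that of Il19 lies inside its annotated gene. They are shown because they held opposite states: the window of Mapkapk2 was covered by peaks over 100% of its length in all 9 lists, and those of Il20 and Il19 were covered over 0% in all 9. Capitals mark CG dinucleotides.
Mapkapk2, chr1:131097794-131098093: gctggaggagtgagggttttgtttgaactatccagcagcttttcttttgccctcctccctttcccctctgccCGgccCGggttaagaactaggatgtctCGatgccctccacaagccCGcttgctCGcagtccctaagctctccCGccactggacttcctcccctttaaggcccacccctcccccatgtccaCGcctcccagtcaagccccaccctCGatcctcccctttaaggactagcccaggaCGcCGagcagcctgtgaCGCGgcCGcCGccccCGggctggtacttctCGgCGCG
Il20, chr1:130911247-130911546: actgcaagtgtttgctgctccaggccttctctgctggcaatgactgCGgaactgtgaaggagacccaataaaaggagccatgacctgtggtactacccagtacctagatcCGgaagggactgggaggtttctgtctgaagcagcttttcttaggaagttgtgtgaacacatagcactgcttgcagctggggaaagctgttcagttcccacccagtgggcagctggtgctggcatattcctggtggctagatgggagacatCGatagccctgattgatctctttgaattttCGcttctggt
Il19, chr1:130940066-130940365: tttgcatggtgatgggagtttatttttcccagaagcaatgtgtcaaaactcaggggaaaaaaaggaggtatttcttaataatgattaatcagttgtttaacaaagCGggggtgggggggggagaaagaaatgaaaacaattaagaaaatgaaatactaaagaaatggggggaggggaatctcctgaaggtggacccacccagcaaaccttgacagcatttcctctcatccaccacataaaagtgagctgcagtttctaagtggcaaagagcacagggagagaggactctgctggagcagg
The Mapkapk2 window holds 18 CG dinucleotides, the Il20 window 4 and the Il19 window 1, beside a median of 7 over 32619 RefSeq windows of this length. At least as many as in Mapkapk2 occur in 29.9% of those windows. Among windows of neighbouring genes, that of Dyrk3 held 32 CG dinucleotides and was at 0% in all 9 lists. That of Gm51643 held 5 and was at 100% in every Th1 and Th2 list and 0% in naive lists. Those of Fcmr, Pigr and Gm41952 held 5, 4 and 2 and were at 0% in all 9, and that of Eif2d, with 19, ranged from 0 to 100%. Coverage was not tested against CG content. Searched on both strands, GGGCGG was found 1 time in Mapkapk2 and not in Il20 or Il19, and 35.9% of all windows hold it. TATAAA, in 13.7% of all windows, and TGANTCA, in 7.85%, had 0 matches in the 3 windows, so no match overlapped another. Over all windows, 13.1% were wholly covered in all 9 lists and 63.8% were untouched in all 9.

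Across the whole cluster the mark was limited to Mapkapk2 in naive cells and spread to several stretches in Th1 and Th2 cells. Peaks covered 41.1, 40.6 and 41.6 kb of the cluster in the naive libraries, 113.1, 108.4 and 92.8 kb in the Th1 libraries and 135, 131 and 146 kb in the Th2 libraries. The groups did not overlap: every Th1 library lay above every naive library, and every Th2 library above every Th1 library. The means were 41.1 ± 0.520 kb, 104.8 ± 10.6 kb and 137 ± 7.38 kb (SD, n = 3 each), that is 19.0%, 48.5% and 63.7% of the cluster. The differences were 63.7 kb for Th1 against naive, 96.3 kb for Th2 against naive and 32.7 kb for Th2 against Th1 (2-sided exact permutation p = 0.1 each, the smallest that 3 against 3 libraries allow; adjusted p = 0.108 over 13 tests of length and edges).

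**Figure D1:**
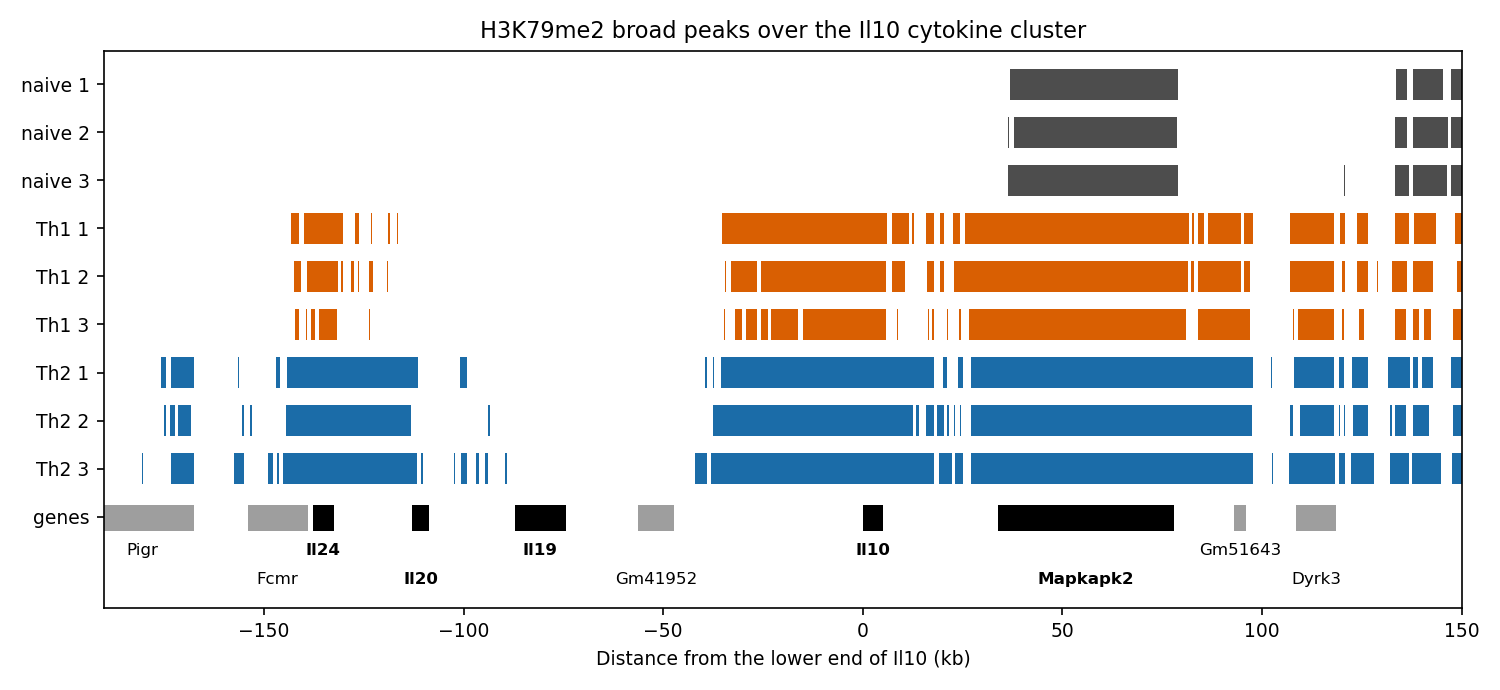
Peaks of the 9 lists over the cluster, drawn by their distance in kb from the lower end of Il10, with 1 row for each library and the 5 members in black and neighbouring genes in grey below. Naive libraries have peaks over Mapkapk2 alone among the members, while all Th1 and Th2 libraries also have a domain over Il10 and a domain over Il24 that is wider in Th2 cells.

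Over the genome naive lists covered the most. They took in 276 to 285 Mb of the genome, Th1 lists 217 to 240.1 Mb and Th2 lists 232 to 250 Mb, with 38026 to 40455, 41504 to 46085 and 45894 to 51854 peaks. Naive cells thus had the highest genome coverage and the lowest coverage of this cluster, while between Th1 and Th2 lists the cluster, the mean genome coverage and the number of peaks were all higher in Th2 cells. Depth per library is unknown. The 3rd Th1 library covered the least of the genome and, among the cultured cells, the least of the cluster; the part of that in the values below was not tested. Fewer cells with the mark and less mark per cell cannot be told apart in these bulk samples.

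Il10 went from bare to fully covered in both helper lineages. Its gene body was covered over 0, 0 and 0% in the naive libraries, 100, 100 and 100% in the Th1 libraries and 100, 100 and 100% in the Th2 libraries. The groups of cultured cells were alike at this level and did not overlap the naive group. A gene was called where limma's Benjamini-Hochberg adjusted p lay under 0.05 and its groups differed by 25 percentage points or more. Il10 rose by 100 ± 1.00 points (SE) in Th1 and in Th2 cells (limma over 11600 genes, adjusted p = 5.93e-10 and 6.77e-10). Of the 5 members, 4 could be tested, and 2 of these, Il10 and Il24, rose and 0 fell in either lineage. Of all genes tested 20.7% were called in Th1 against naive, 4.38% as higher and 16.3% as lower, and 19.6% were called in Th2 against naive, 4.26% as higher and 15.4% as lower. Il10 did not vary within any group, so its p-values rest on variance borrowed from other genes. Th2 and Th1 cells both stood at the ceiling of this measure, so a difference between them could show only outside the gene.

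The domain on Il10 was many times longer than the gene, which is 5126 bp. With peaks up to 1 kb apart joined, it measured 41.4, 38.97 and 20.9 kb in the Th1 libraries and 53.2, 51.5 and 59.9 kb in the Th2 libraries, while no naive library had a peak on Il10. Most of it lay at lower coordinates, which is upstream of Il10. There it reached 35.4, 33.1 and 15.0 kb past the gene in Th1 and 35.5, 37.4 and 42.1 kb in Th2 libraries. Every Th2 library reached further than every Th1 library, although the 1st Th1 and 1st Th2 libraries were nearly level. The difference was 10.5 kb (27.8 ± 11.2 against 38.3 ± 3.40 kb, SD, n = 3 each; exact permutation p = 0.1, adjusted p = 0.108), and it was 4.79 kb when peaks within 3 kb were joined, which carried the domain of the 3rd Th1 library down to 130985128.

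Past its other, 3′ end the Il10 domain, joined over 1 kb, ended in the Th1 libraries 0.879, 0.779 and 0.751 kb beyond the gene. In Th2 libraries it ran on for 12.6, 8.92 and 12.7 kb, well apart from the Th1 values. The difference was 10.6 kb (0.803 ± 0.0673 against 11.4 ± 2.15 kb, SD, n = 3 each; exact permutation p = 0.1, adjusted p = 0.108). Joined over 3 kb, the Th1 domains ended further out and further apart, at 131032565, 131030476 and 131028744, and Il10 and Mapkapk2 lay in a single domain in 3 of 3 Th2 libraries, 0 of 3 Th1 libraries and 0 of 3 naive libraries. By the authors' own values, the fold enrichment of the Il10 peak was 4.51, 4.03 and 3.40 in the Th1 lists and 3.77, 3.91 and 4.98 in the Th2 lists. These are values of a peak within its list and were not compared between lists.

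**Figure D2:**
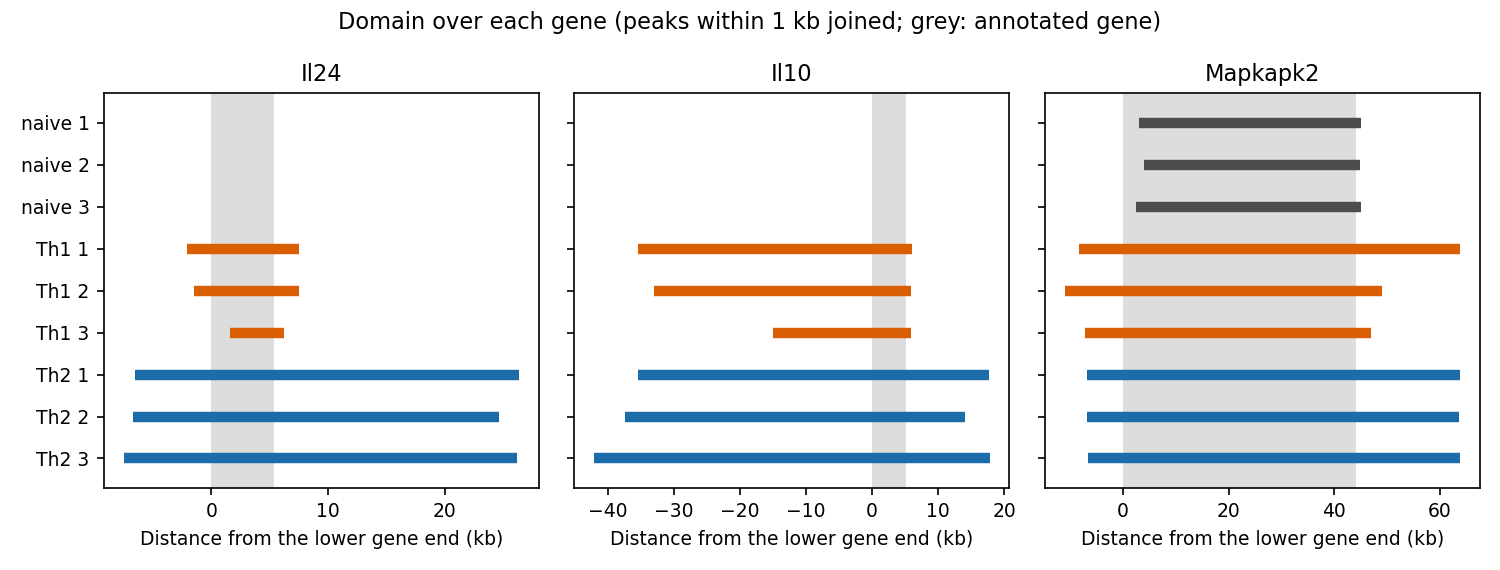
Extent of the domain over Il24, Il10 and Mapkapk2 in each library, in kb from the lower end of the gene, with the annotated gene in grey and peaks within 1 kb joined. Th2 domains reach beyond Th1 domains on both sides of Il24 and Il10, and the naive libraries have a domain on Mapkapk2 alone, which stops 2.56 to 3.99 kb short of the lower end of that gene.

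Il24, the cytokine gene at the lower end of the cluster, was covered along its body in both lineages but sat in a much wider domain in Th2 cells. Its coverage was 0, 0 and 0% in naive, 100, 100 and 79.1% in Th1 and 100, 100 and 100% in Th2 libraries. The 3rd Th1 library was the only cultured library below the ceiling. Il24 rose by 93.0 ± 5.21 points in Th1 (SE; limma, adjusted p = 4.03e-06) and by 100 ± 5.21 points in Th2 cells (limma, adjusted p = 3.11e-06). Between Th2 and Th1 cells the gene body differed by 6.96 ± 5.21 points (limma, adjusted p = 0.479), where 3.64% of all genes were called, 2.08% as higher and 1.56% as lower in Th2 cells, and 0 of the 4 tested members. Among stronger peaks alone (−log10 q of 5 or more), the Th1 difference was 66.7 points and no longer called (limma, adjusted p = 0.0656), because the Il24 peak of the 3rd Th1 library stood at 3.36.

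Outside the gene the Il24 domains differed more. The domain measured 9.59, 9.02 and 4.56 kb in Th1 libraries and 32.9, 31.3 and 33.7 kb in Th2 libraries. On the side of Il20 it passed the gene by 2.18, 2.20 and 0.858 kb in Th1 and by 21.0, 19.3 and 20.9 kb in Th2 libraries. The 3 Th2 values lay within 2 kb of each other and far from all Th1 values, a difference of 18.7 kb (exact permutation p = 0.1, adjusted p = 0.108). On the side of Fcmr the domain passed the gene by 2.07, 1.48 and -1.63 kb in Th1 libraries, the negative value lying inside the gene, and by 6.55, 6.70 and 7.47 kb in Th2 libraries, a difference of 6.27 kb (exact permutation p = 0.1, adjusted p = 0.108).

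Il20, the next gene, was reached by the upper end of that Th2 domain. Its coverage was 0, 0 and 0% in naive, 0, 0 and 0% in Th1 and 33.9, 0 and 37.9% in Th2 libraries. The 2nd Th2 library ended its domain before Il20 and equalled the naive and Th1 libraries. Because Il20 is read towards lower coordinates, the covered part lay mainly towards its 3′ end, and its promoter window, shown above, was untouched. The mean of 23.9% ± 20.8 (SD, n = 3) was below the 25 points needed for a call against naive cells (limma, adjusted p = 0.0483) and against Th1 cells (limma, adjusted p = 0.127). Without the 2nd Th2 library both differences were 35.9 points and called (limma, adjusted p = 1.99e-06 and 7.63e-06). With 2 kb added at both gene ends both were 35.4 points and called (limma, adjusted p = 0.000616 and 0.00344). Other settings went the other way. Without the 1st or the 3rd Th2 library both differences were smaller than at first and not called. The same held with the stronger peaks alone and with each list cut to the same covered length. In each of these settings limma's adjusted p against naive cells was above 0.05. It was also above 0.05 without any 1 naive or Th1 library, although the difference stayed at 23.9 points.

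Il19 had no peak in any library. Its coverage was 0% in all 9 lists, so it had no difference to test. The long noncoding RNA gene Gm41952 (130963490 to 130972532), between Il19 and Il10, was also at 0% in all 9 lists. The domain on Il24 and that on Il10 thus lay apart on both sides of Il19 in every Th1 and Th2 library. The 4 cytokine genes of the cluster thus fell into 3 patterns: Il10 and Il24 covered in both lineages, Il20 partly covered in 2 of 3 Th2 libraries, and Il19 bare.

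**Figure D3:**
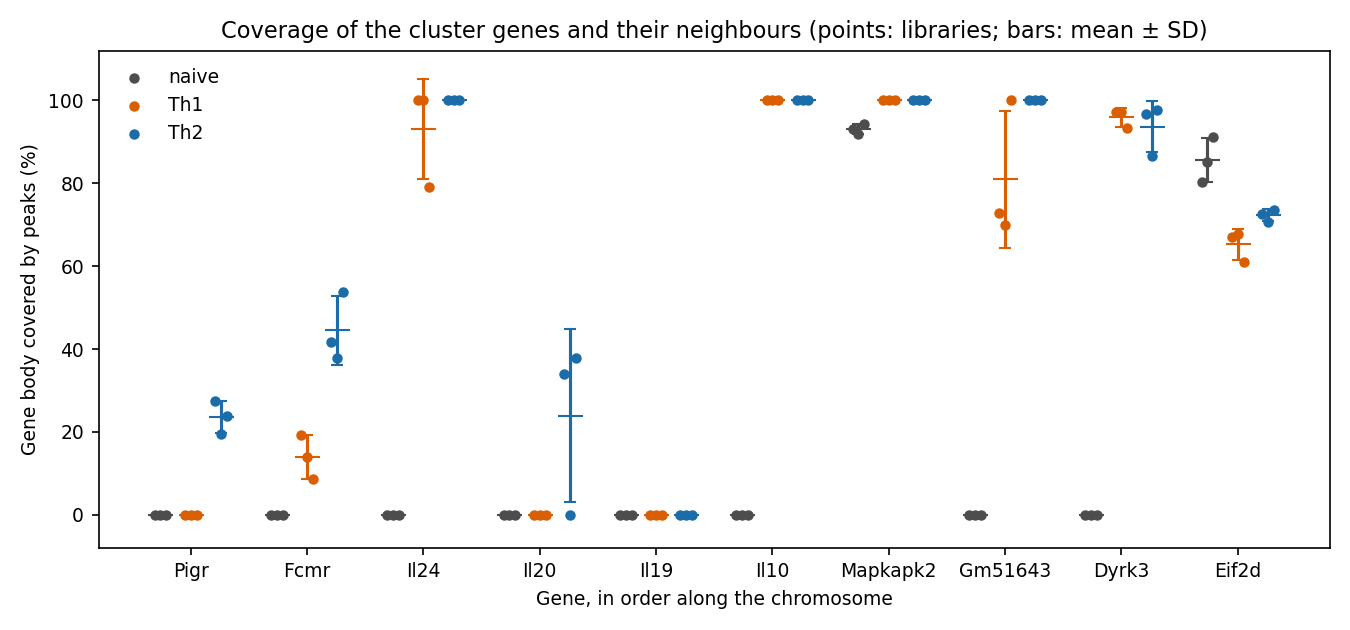
Percent of the gene body covered for the members and their neighbours in chromosomal order, with a point for each library and bars for the mean ± SD of 3 libraries. Il24, Il10, Gm51643 and Dyrk3 go from 0% in naive to 69.9% or more in every Th1 and Th2 library, while Il19 is at 0% throughout.

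Mapkapk2 was the member with the mark in all cells, and its domain was longer in cultured cells. Coverage of its gene body was 93.1, 91.9 and 94.2% in naive, 100, 100 and 100% in Th1 and 100, 100 and 100% in Th2 libraries. The groups did not overlap, but the difference of 6.94 ± 0.721 points (SE; limma, adjusted p = 0.000101 for Th1 and 0.000105 for Th2) was under the 25-point minimum, which a gene at 93.1% cannot reach. The uncovered part in naive cells was the 3′ end. There the naive domain stopped 3.04, 3.99 and 2.56 kb inside the gene, while it ran 8.33, 11.1 and 7.19 kb past the gene, towards Il10, in Th1 libraries and 6.72, 6.81 and 6.70 kb past it in Th2 libraries.

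At the promoter end the naive domain of Mapkapk2 ended 0.833, 0.728 and 0.928 kb outside the gene. In Th2 libraries it ended 19.6, 19.5 and 19.6 kb outside, a spread of 0.0932 kb (SD, n = 3) about a mean of 19.6 kb. Th1 libraries differed among themselves, at 19.6, 4.80 and 2.86 kb, and the 1st Th1 library overlapped the Th2 group. The difference from naive was 18.7 kb in Th2 cells (exact permutation p = 0.1, adjusted p = 0.108) and 8.25 kb in Th1 cells (exact permutation p = 0.1, adjusted p = 0.108), and Th2 differed from Th1 by 10.5 kb (exact permutation p = 0.2, adjusted p = 0.2). The Th1 values depended on how peaks were joined: without joining, the Th1 peak ended 2.52 kb further out than the naive peak, and with peaks within 3 kb joined 12.97 kb further. At the other end the reach of Th2 domains towards Il10 differed from that of Th1 domains by -2.12 kb (exact permutation p = 0.1, adjusted p = 0.108). That order turned, to 57.3 kb, when peaks within 3 kb were joined, as the Th2 domain then took in Il10.

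The Mapkapk2 peak stood near the top of its list by the authors' −log10 q. It ranked 13, 19 and 19 in the Th1 lists, 50, 59 and 36 in the Th2 lists and 366, 361 and 387 in the naive lists, counted from the highest. Its fold enrichment was 14.9, 11.9 and 11.5 in the Th1 lists, 10.1, 10.1 and 11.8 in the Th2 lists and 7.73, 8.53 and 7.66 in the naive lists. The Il10 peak, by contrast, had a higher −log10 q than 83.9 to 88.2% of peaks in the Th1 lists and 86.9 to 91.9% in the Th2 lists. Ranks and enrichments describe a peak within its own list and were not tested between lists.

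Between the genes, naive cells had no peak from Il24 to Mapkapk2. The 19.6 kb between Il24 and Il20 were covered over 22.3, 18.7 and 5.69% in Th1 and 100, 98.6 and 100% in Th2 libraries. The 21.4 kb between Il20 and Il19 were bare in Th1 libraries and covered over 8.98, 2.87 and 19.2% in Th2 libraries. Of these neighbouring stretches the first was nearly filled and the second nearly bare in Th2 cells.

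The 74.4 kb between Il19 and Il10 were covered over 47.6, 43.5 and 38.04% in Th1 and 48.5, 50.3 and 55.5% in Th2 libraries, most of it the upstream reach of the Il10 domain. The 28.7 kb between Il10 and Mapkapk2 were covered over 65.2, 61.6 and 34.3% in Th1 and 75.0, 67.7 and 85.3% in Th2 libraries. Every Th2 library was above every Th1 library in all 4 of these stretches, by small margins in the last 2. How often stretches elsewhere in the genome separate in this way was not measured. The stretches next to Il24 and Il10 hold the domain ends given above and are not separate results.

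**Figure D4:**
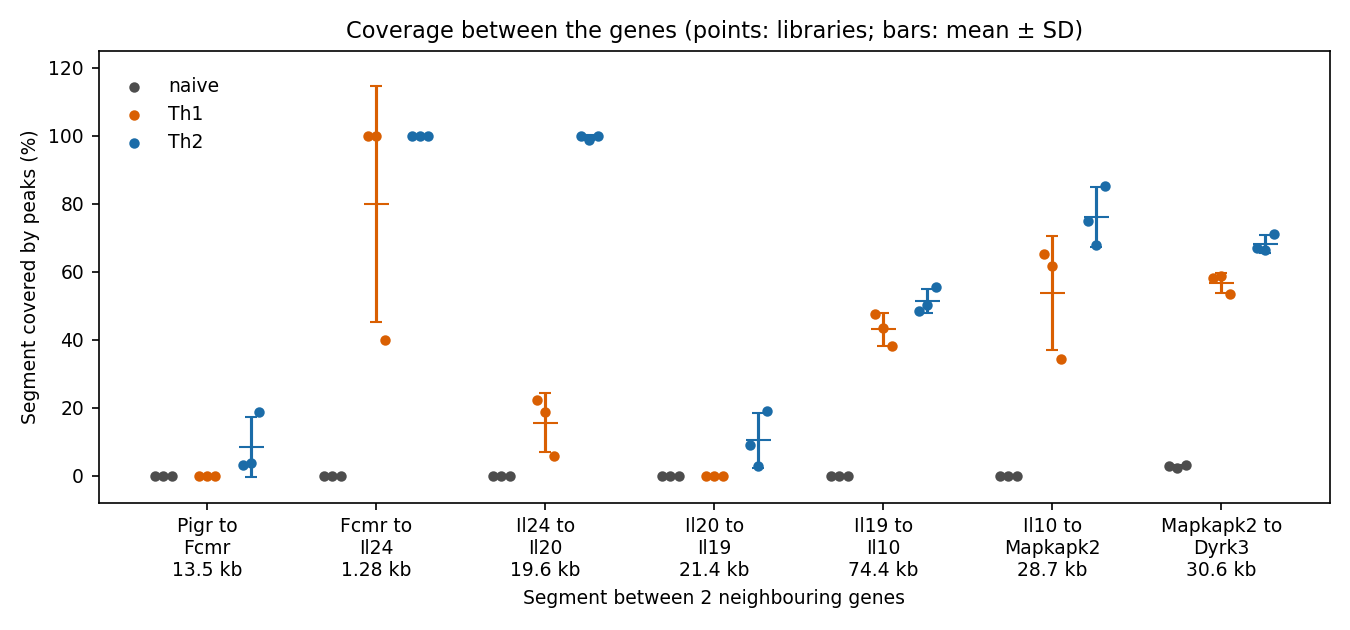
Percent covered of each stretch between neighbouring genes, with its length in kb, a point for each library and bars for the mean ± SD of 3 libraries. Between Il24 and Il20 the Th2 libraries lie at 98.6% or above and the Th1 libraries at 22.3% or below, while the stretch between Il20 and Il19 stays under 20% in every library.

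To place these differences, the genome was split into tiles of 5 kb and the percent of each tile covered was tested in the same way. Neighbouring tiles can lie in the same broad peak, so they are not independent. Counts of tiles are therefore not counts of separate differences. From 50 kb below to 50 kb above the cluster lie 64 tiles, of which 11 had no peak in any library, 7 inside Mapkapk2 were wholly covered in all 9 and 46 were tested. Against naive cells 25 tiles were higher in Th1 and 35 in Th2 cells, and 0 were lower. With the stronger peaks alone 8 of the 25 and 28 of the 35 stayed called. Over all 84522 tiles tested, 33.8% were called in Th1 cells, 7.68% as higher and 26.2% as lower, and 32.7% in Th2 cells, 9.04% as higher and 23.6% as lower. The 4 tiles from 131005001 to 131025000, which hold Il10 and the stretch just upstream of it, went from 0% in every naive library to 100% in every Th1 and Th2 library.

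Th2 cells exceeded Th1 cells in 10 of the 46 tiles and fell below them in 0, where 8.75% of all tiles were called, 5.8% as higher and 2.95% as lower. Of the 10, 4 were consecutive tiles from 130890001 to 130910000, the first 3 between Il24 and Il20 and the last reaching into Il20. All 4 lie on the Il24 domain of the Th2 libraries and are not separate differences. Their means were 14.5, 9.46, 7.83 and 0% in Th1 and 100, 100, 100 and 58.5% in Th2 cells (limma, adjusted p = 8.8e-05, 4.1e-06, 1.16e-05 and 0.00584). Another began at 131030001, past the 3′ end of Il10, with means of 15.4% ± 19.0 (SD, n = 3) in Th1 cells and 87.7% ± 21.3 in Th2 cells (limma, adjusted p = 0.00868). Another began at 131100001, just outside the cluster past the promoter of Mapkapk2, with 57.3% ± 15.4 and 100% ± 0 (limma, adjusted p = 0.00649). The other 4 lay further out, 3 of them between 130845001 and 130880000 over Pigr and Fcmr and 1 beyond Dyrk3 at 131140001. The last differed by 27.2 points (limma, adjusted p = 0.0237), a call that ended with values of 22.4 to 29.1 points without the 2nd or 3rd Th1 library or without the 1st or 3rd Th2 library. It also ended with libraries centred to one mean, at 23.9 points, and with matched covered length (35.7 points; limma, adjusted p = 0.0943).

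The neighbours on both sides shared parts of the pattern. Dyrk3, a kinase gene 30.6 kb beyond Mapkapk2, was covered over 0, 0 and 0% in naive, 97.3, 97.3 and 93.4% in Th1 and 96.8, 86.7 and 97.6% in Th2 libraries. It rose by 96.0 ± 2.95 points in Th1 and 93.7 ± 2.95 points in Th2 cells (SE; limma, adjusted p = 1.84e-07 and 2.39e-07). With the stronger peaks alone the Th1 difference was 64.9 points and not called (limma, adjusted p = 0.0665). The noncoding gene Gm51643 (131112795 to 131115907), in the stretch between Mapkapk2 and Dyrk3, was at 0% in naive, 72.9, 69.9 and 100% in Th1 and 100% in all Th2 libraries. In the Th2 libraries Gm51643 lay inside the Mapkapk2 domain, which ended at 131117467, 131117338 and 131117519.

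On the Il24 side, Fcmr, which encodes the Fc receptor for IgM, was covered over 0% in naive, 19.2, 13.9 and 8.61% in Th1 and 41.7, 37.9 and 53.8% in Th2 libraries. It rose in Th2 cells against naive by 44.5 ± 4.23 points (SE; limma, adjusted p = 6.68e-05) and against Th1 by 30.6 ± 4.23 points (limma, adjusted p = 0.00282; 23.5 points and not called with matched covered length, that is, with each list cut to its strongest peaks until all covered 217 Mb). Part of the Fcmr coverage in Th2 libraries belonged to the Il24 domain, which began at 130875523, 130875378 and 130874609, inside Fcmr (130865777 to 130880790). The promoter window of Fcmr was at 0% in all 9 lists. Pigr, which encodes the polymeric immunoglobulin receptor, was at 0% in naive and Th1 libraries and at 27.4, 19.5 and 23.8% in Th2 libraries, a difference of 23.6 points that missed the 25-point minimum. Fcamr, the next gene, was at 0.962% ± 0.397 in Th2 cells and 0% in the other groups. Eif2d, beyond Dyrk3, overlaps Rassf5 and was covered in all groups, with means of 85.6% ± 5.36 (SD, n = 3) in naive cells, 65.3% ± 3.75 in Th1 cells and 72.3% ± 1.44 in Th2 cells.

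The receptor chains of the family ranged from bare to fully covered. Il22, Ifnl2 and Ifnl3, the other family ligands listed, were at 0% in all libraries. Il10ra, the ligand-binding chain of the IL-10 receptor, was at 99.8% ± 0.351 in naive and at 100% in Th1 and Th2 cells. Il10rb, the shared second chain, was at 94.8, 88.8 and 91.5% in naive, 92.7, 64.3 and 72.3% in Th1 and 44.97, 63.8 and 53.3% in Th2 libraries, and fell in Th2 against naive cells by 37.7 points (limma, adjusted p = 0.00335). Il20rb, a chain of the receptors for IL-19, IL-20 and IL-24, was at 39.6, 43.6 and 62.6% in naive, 44.3, 34.3 and 33.01% in Th1 and 89.9, 85.6 and 93.9% in Th2 libraries. It rose in Th2 cells by 41.2 points against naive and 52.6 points against Th1 cells (limma, adjusted p = 0.000744 and 0.00126). Il20ra, its partner, reached 0.143% ± 0.248 in Th1 and 0% in the other groups. Of 7 receptor genes 5 could be tested, with 0 higher and 0 lower in Th1, 1 higher and 1 lower in Th2 cells against naive, and 1 higher in Th2 against Th1. Of all genes tested 4.38% were higher and 16.3% lower in Th1, and 4.26% and 15.4% in Th2 cells against naive. In Th2 against Th1 cells 2.08% were higher and 1.56% lower. With 15.4% of all genes lower, 1 of these 5 is near the background. The median difference of the 5 was 0.143 points for Th1 and 0 for Th2 against naive, beside -5.54 and -5.50 points over all genes tested.

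Below the receptor, 6 of 8 genes could be tested. Tyk2, a kinase of the IL-10 receptor, fell from 62.3, 76.4 and 65.5% in naive to 22.4, 11.8 and 15.5% in Th1 and 12.9, 14.6 and 13.3% in Th2 libraries (limma, adjusted p = 2.18e-05 and 1.86e-05). Both calls of Tyk2 ended with matched covered length, at -17.6 and -18.6 points, and with the stronger peaks alone, at -18.4 and -18.6 points. Stat3, the main transcription factor of IL-10 signalling, had a mean of 97.6% or above in each group, and Socs3, its target and inhibitor, at 100% in all 9. Of the 6, 0 were higher and 1 was lower in Th1 and in Th2 cells against naive, and 0 were called in Th2 against Th1, with medians of 1.62, 1.69 and -0.0862 points. With 16.3% and 15.4% of all genes lower against naive, 1 of 6 is near the background.

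Among 17 transcription factor genes tied to Il10 in T cells 16 could be tested, and 7 rose and 0 fell against naive cells in each lineage, with medians of 14.5 points in Th1 and 20.4 in Th2 cells. Over all genes 4.38% and 4.26% were higher and 16.3% and 15.4% lower, with medians of -5.54 and -5.50 points. Bhlhe40, which represses Il10, and Tbx21, the Th1 master regulator, were at 0% in naive libraries and at 99.5% or above in every Th1 and Th2 library. Nfil3 went from 6.20% ± 3.39 to 100% in both, and Maf, an activator of Il10, from 11.1% ± 19.2 to 100% in both (limma, adjusted p = 5.37e-05 and 5.74e-05), with 33.3% in the 2nd naive library and 0% in the others. Zeb2 was bare in naive cells and was at 88.1% ± 2.65 in Th1 cells and 81.5% ± 1.60 in Th2 cells. Hlx rose in Th1 cells, from 0% to 100% in each library, and was at 0, 0 and 41.8% in Th2 libraries, 86.1 points below Th1 cells (limma, adjusted p = 0.00137). Between Th2 and Th1 cells 1 of the 16 was higher, Gata3 by 38.1 points (limma, adjusted p = 4.73e-06; named after its value was seen), and 1 lower, Hlx, with a median of 0.0318 points beside 0.018 over all genes.

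Of 19 genes of the p38 and MK2 pathway 13 could be tested, with 1 higher and 1 lower in Th1, 0 and 0 in Th2 cells against naive, and 2 higher and 0 lower in Th2 against Th1 (medians -11.1, -1.19 and 1.22 points). Over all genes 20.7% were called in Th1 and 19.6% in Th2 cells against naive, and 3.64% in Th2 against Th1. Map2k6, a kinase that activates p38, fell from 68.4% ± 0.0808 in naive to 14.3% ± 4.26 in Th1 cells (limma, adjusted p = 1.36e-06) and stood at 56.5% ± 2.71 in Th2 cells, 42.2 points above Th1 (limma, adjusted p = 3.5e-05; 16.6 points and not called with the stronger peaks alone). Map3k5, further up the cascade, rose in Th1 cells by 25.3 points (limma, adjusted p = 8.12e-05), a call that ended at 16.9 points with the stronger peaks alone and at 24.8 and 23.99 points without the 2nd naive or the 1st Th1 library. Rps6ka5 was 30.2 points higher in Th2 than Th1 cells (limma, adjusted p = 4.52e-05). Mapk14, the p38 alpha gene, was at 87.7% ± 0.785 in naive cells, 69.2% ± 3.20 in Th1 cells and 66.8% ± 4.97 in Th2 cells, and Zfp36, which encodes TTP, was at 100% in all libraries.

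**Figure D5:**
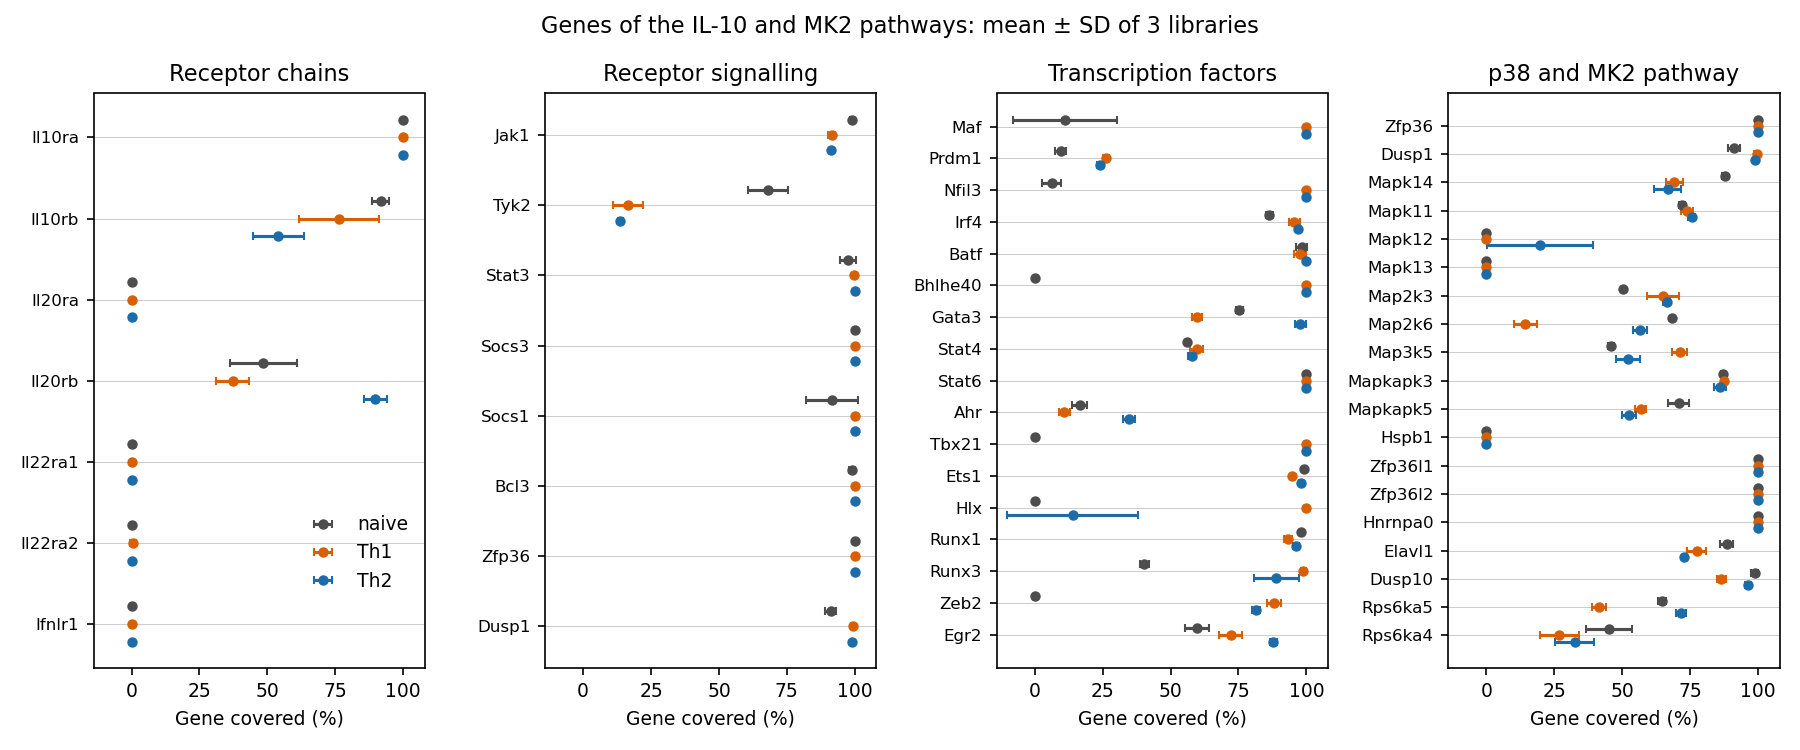
Percent of the gene body covered for the listed receptor chains, receptor signalling genes, transcription factors and p38 and MK2 pathway genes, as the mean ± SD of 3 libraries in each group. The transcription factors Bhlhe40, Tbx21, Zeb2, Nfil3 and Maf have means of 11.1% or less in naive and of 81.5% or more in Th1 and Th2 cells, and Il20rb is highest in Th2 cells.

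The genes whose coverage was most like that of Il10 were found by the mean absolute difference over the 9 libraries, among 14289 genes of at least 4 kb that overlap no other protein-coding gene. Spin4 and D630039A03Rik matched Il10 exactly, followed by Batf3 at 0.0222, Tbx21 at 0.0308 and Bhlhe40 at 0.127 points, and 18 genes lay within 5 points. The same 5 genes were nearest to Il24, at 2.30 to 2.40 points. For Mapkapk2, among 17782 such genes of any length, the nearest were Vps28 at 0.145, Gpr132 at 0.266, Etv6 at 0.582, Tor4a at 0.639 and Nfkbiz at 0.642 points, and 1044 genes lay within 5 points. The measure is blunt, since genes at 0 or 100% in all libraries of a group look alike whatever their domains do outside the gene.

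The cell labels were checked against marker genes, as B cells and macrophages can also make IL-10. The 6 T lineage markers summed to 566 to 585, 578 to 586 and 572 to 576 percentage points in naive, Th1 and Th2 libraries. Of 6 B cell markers 3 (Ms4a1, Pax5 and Blk) were at 0% in all 9 lists, and the list summed to 136 to 184, 100 and 100 to 100.1 points. Cd79a was at 100% in all 9, and Cd79b was at 43.0, 84.0 and 36.0% in naive libraries and 0% in the others. Of 6 myeloid markers 4 (Lyz2, Csf1r, Cd14 and Adgre1) were at 0% in all 9, with sums of 107 to 110.5, 38.9 to 56.8 and 78.95 to 100 points. Most of that came from Tyrobp, at 100% in all naive libraries, 55.4, 42.1 and 37.4% in Th1 and 100, 100 and 78.95% in Th2 libraries. The 2 CD8 genes summed to 200 points in naive, 7.55 to 11.9 in Th1 and 24.8 to 39.2 in Th2 libraries. Cd8a and Cd8b1 were each at 100% in every naive library. By these genes the naive libraries cannot be called CD4 cells alone, which limits every comparison with them. Of 3 NK cell markers, which summed to 0, 42.7 to 59.1 and 0 to 14.5 points, Eomes rose in Th1 cells. The part of these other cell types in the results was not tested. The 4 keratinocyte and epithelial markers summed to 0.544 points at most.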

How the data were processed

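H3K79me2 libraries (9) and input libraries (9) were made. The inputs have no peak list here and entered no test. MACS2, Bowtie2, SAMtools and Picard, with the build mm10, are named per the submitters' processing notes, while their versions, their settings and whether inputs were used in peak calling are not given in the sources used here. The authors deposited a list of peaks per library, with coordinates, a score for display, a ratio (fold enrichment) and the −log10 of p and of q. Depth is unknown, so no counting interval could be set.

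Percent covered by the peaks of a library was computed for 21631 protein-coding genes and for 5-kb tiles on chromosomes 1 to 19 and X. Only features that varied among the 9 libraries were tested. limma 3.58.1 in R 4.3.3 (lmFit, eBayes with a variance trend, 6 residual degrees of freedom) fitted all 9 libraries, tested on simulated data first, with Benjamini-Hochberg adjustment. Genes without spread owe their p-values to borrowed variance. Cluster length and domain edges were compared by exact permutation with SciPy 1.17.1. No library pair shared more than 1 identical peak. The members, lists and rules for names were chosen with earlier results of these data known. Named genes are the members, their neighbours within 150 kb and, from each list, at most 6 called genes by size of difference; Il10ra, Il20ra, Stat3, Socs3, Mapk14 and Zfp36 were added for their roles after their values were seen. Some listed genes are not reported here, and the counts of their lists leave them out. Members of a list are not replicates. Alternatives changed the peak threshold, covered length, centring, gene ends, scale, filter, joining, the replicate block and the libraries used.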

Additional observations from a re-analysis of the deposited data

Results flagged for a closer look

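Th1 and Th2 cells, each set against the same naive libraries, were also compared with each other by limma's test of the difference itself. They differed in 10 of the 46 tiles of 5 kb tested around the cluster and in 8 genes named or listed. Over the genome 8.75% of tiles and 3.64% of genes were called. Neighbouring tiles that share a domain are not separate differences. The 8 genes are gathered from several lists and the neighbours because they were called, so their number is not a result. The 10 tiles were all higher in Th2 cells, by 85.5, 90.5, 92.2 and 58.5 points in 4 consecutive tiles from Il24 into Il20, by 72.4 points past the 3′ end of Il10 and by 42.7 points just outside the cluster past the promoter of Mapkapk2. Further out they were higher by 70.7, 42.2 and 60.8 points over Pigr and Fcmr and by 27.2 points beyond Dyrk3. Fcmr itself was higher in Th2 cells by 30.6 points, Il20rb by 52.6, Gata3 by 38.1, Map2k6 by 42.2, Rps6ka5 by 30.2 and the myeloid marker Tyrobp by 48.0 points. Hlx differed by -86.1 and the NK cell marker Eomes by -41.5 points. Tyrobp was not called with peaks of −log10 q of at least 5 (42.1 points) or with genes extended by 2 kb (19.7 points). No member of the cluster differed between Th2 and Th1 cells in its gene body by this test.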

How the results depend on the processing

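Of 204 values of the members under other settings 198 stayed as first found, called or uncalled, and 0 were counted as reversed. Many were uncalled at first and had no call to keep. A difference of 0, as of Il10 between Th2 and Th1 cells, could not be counted as reversed. Mapkapk2, at 93.1% in naive cells, could hardly be called as higher. The count therefore says little about how firm the calls are. Il24 lost its Th1 call with peaks of −log10 q of at least 5, and Il20 gained a call 5 times, among them against naive with libraries centred (31.6 points). Il10 in Th2 against Th1 cells went from 0 to 13.1 points with 2 kb added at both gene ends (limma, adjusted p = 0.000208). That is under the 25-point minimum and is counted as unchanged. Of 659 values of the called list and neighbour genes under other settings 647 kept the call. A gene that could not be tested under a setting is not in that count. Cd79b was such a gene with peaks of −log10 q of at least 5 and with matched covered length. The counts over all genes moved more. Genes higher in Th2 than Th1 cells numbered 144 with peaks of −log10 q of at least 5. With matched covered length 817 genes were higher and 1032 lower in Th1, and 756 and 1095 in Th2 cells against naive, beside 508, 1895, 494 and 1781 as tested first. With libraries centred 1175 and 1118 were lower. Tiles higher and lower against naive numbered 3455 and 12476 in Th1 and 3700 and 12510 in Th2 cells with peaks of −log10 q of at least 5, and 1765 and 1557 in Th2 against Th1. With matched covered length 9217 and 8799 tiles were lower against naive in Th1 and Th2 cells, and 3069 higher in Th2 than Th1 cells. With libraries centred 10582 tiles were higher in Th1 cells. Near the cluster 8 of 25 tiles stayed called in Th1 and 28 of 35 in Th2 cells with peaks of −log10 q of at least 5, and 23 and 33 with matched covered length. The lower edge of Mapkapk2 in Th2 against Th1 turned to 57.3 kb with peaks within 3 kb joined, which also took the Il10 upper edge in Th2 against Th1 to 86.8 kb and the Mapkapk2 lower edge in Th2 against naive to 76.2 kb, since the domains then merge. The Mapkapk2 upper edge in Th2 against Th1 was 16.2 kb with no joining and 5.77 kb with peaks within 3 kb joined. At −log10 q of at least 5 no Il24 edge could be tested. The replicate numbers are shared across groups, but same-numbered libraries did not deviate together (correlations from -0.0745 to 0.00147); with the replicate block 505 genes were higher and 1878 lower in Th1, 491 and 1770 in Th2 against naive, 225 and 168 in Th2 against Th1, and no call of a member changed, while the call of the tile beyond Dyrk3 in Th2 against Th1 ended (27.2 points; limma, adjusted p = 0.075), 33 of 35 tiles stayed called in Th2 against naive and 9 of 10 in Th2 against Th1. Leaving out a library could not change the order of the cluster lengths, since the groups did not overlap. The cause of these changes was not tested. Depth is unknown and limits what a bare gene means: no peak was called there.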

Other observations

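At the outer margins of the region AA986860 and Gm28913 had higher coverage in naive cells, while others, such as Gm28856, were bare in every list. AA986860 differed by -19.7 points in each lineage, under the 25-point minimum. Gm28913, as a noncoding gene, was not tested. Of all genes tested 16.3% were lower in Th1 and 15.4% in Th2 cells against naive. AA986860, below Fcamr, was covered over 22.1, 21.0 and 15.8% in naive libraries and 0% in all Th1 and Th2 libraries, and the noncoding gene Gm28913, at the far end of Rassf5, over 46.6, 47.6 and 43.3% in naive, 4.00, 4.88 and 0% in Th1 and 5.04, 7.64 and 10.5% in Th2 libraries. The promoter window of Dyrk3 was at 0% in all 9 lists although its gene body was covered over 86.7% or more in every Th1 and Th2 library, while that of Gm51643 was at 0% in naive and 100% in every Th1 and Th2 library.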
